A study of Homo sapiens with 6 samples.

Results

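The genes described here are 10 heat shock chaperone and co-chaperone genes, HSPA1A, HSPA8, HSPA4, HSPH1, HSP90AA1, DNAJB1, BAG3, HSPB1, HSPD1 and HSPE1, out of 13119 gene symbols that the array's annotation carries. They were chosen by name, and every probe set whose annotation lists one of them was taken, which gave 23 of the 22215 probe sets tested. Of these 23, 17 carry the symbol of 1 member alone and cover 8 genes. The other 6 list a member beside other genes. All 3 probe sets of HSPA1A also list its near-identical neighbor HSPA1B, and 1 of them HSPA1L as well. All 3 of HSPA8 also list SNORD14C and SNORD14D, small nucleolar RNA genes whose positions lie inside HSPA8. The probe sets of HSPA1A therefore cannot separate it from its paralogs. Although the group is known as that of the cytosolic heat shock proteins, the products of HSPD1 and HSPE1 work in the mitochondrial matrix.

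The cells were SUM-159, a human line of triple negative breast cancer, which carried either SH3GL2 in the pcDNA 3.1 vector or that vector without an insert, both as stable transfectants. Total RNA of the SH3GL2 cells and of the empty vector cells was hybridized to 3 Affymetrix arrays each. SH3GL2 encodes endophilin A1, a membrane-bending protein of endocytosis. Both groups carry the vector and were kept under G418, and the sources used here do not say whether the lines were single clones or whether the 3 RNA samples of a group were separate cultures, so that p-values measure only the spread between these samples. The log2 signals had array medians of 6.97 to 7.02. The only probe set of SH3GL2 gave 3.15, 3.33 and 3.29 in the SH3GL2 arrays, against 3.24, 3.18 and 3.25 in the empty vector arrays, and so could not check the labels, since these values lie below the median of 5.03 of 98 probe sets whose genes are known from other organs. The 95th percentile of those 98, a log2 signal of 7.42, is called the background level here. Of the markers of the line, VIM, CD44, FN1, CAV1 and SPARC all lay above the background level, whereas ESR1, PGR, CDH1, EPCAM and FOXA1 lay below it and KRT18 and GATA3 above it. FN1, CAV1 and SPARC passed and were lower in SH3GL2 cells, with log2 fold changes of -0.31, -0.30 and -0.25. None of 5 endothelial markers and 1 of 7 blood cell markers (HBB) exceeded that level, and none of these 12 passed limma (1 at an unadjusted p under 0.05). The summed linear signal of the blood cell markers was 429 to 449 in the SH3GL2 arrays and 456 to 470.4 in the empty vector arrays, whose part in the results below was not tested. An array signal averages all cells of a culture, so that fewer expressing cells and less RNA per cell cannot be told apart.

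Heat shock proteins bind unfolded or partly folded proteins and keep them from clumping. HSP70 proteins hold a client in a cycle driven by ATP, in which J-domain proteins (HSP40) deliver the client and nucleotide exchange factors release it, and HSP90 finishes the folding of many kinases and receptors. Small heat shock proteins hold clients without ATP, and the HSP60 and HSP10 chaperonin folds proteins inside mitochondria. Most of these genes are transcribed faster when heat or another stress frees the transcription factor HSF1, which binds inverted repeats of the letters GAA, called heat shock elements. HSPA1A and HSPA1B are among those that rise most steeply in that response, whereas HSPA8, HSP90AA1 and the chaperonin genes are also made in unstressed cells.

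Few of the chaperone probe sets passed the test between SH3GL2 and empty vector cells. Of the 17 probe sets with 1 symbol, 1 was higher (HSPA4), 1 was lower (HSPB1) and 15 did not pass limma at an adjusted p under 0.05, where 4.17% of all 22215 probe sets passed, 1.99% higher and 2.18% lower. Of the 6 shared probe sets of HSPA1A and HSPA8, none passed (1 at an unadjusted p under 0.05, as for 4 of the 17 and 15.9% of all probe sets, and none in a one-way analysis of variance). Without SH3GL2 replicate 2 none of the 17 was higher and 1 was lower, HSPB1, and 1 of the 6 shared was lower, where 3.61% of all probe sets passed, 1.64% higher and 1.97% lower. The median log2 fold change of the 17, given as a description, was 0.03, beside 0.01 over all probe sets, and the median size of the change regardless of direction was 0.06, beside 0.08 over all probe sets. The median size was 0.19 for the 6 shared probe sets and 0.09 for all 23. The groups did not overlap at 5 of the 17, 4 of them higher and 1 lower in SH3GL2 cells, and at 19.4% of all probe sets, 10.5% higher and 8.97% lower. A group mean above the background level was seen at 20 of all 23 probe sets, the others being 200799_at, 200800_s_at and 211016_x_at. What stood apart was 1 array. SH3GL2 replicate 2 had higher signals than both other SH3GL2 arrays on the probe sets of the HSP70 genes HSPA1A and HSPA8. Those of HSPA1A are shared with HSPA1B and do not show which of these paralogs was higher. The pattern was singled out after the values were seen.

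**Figure D1:**
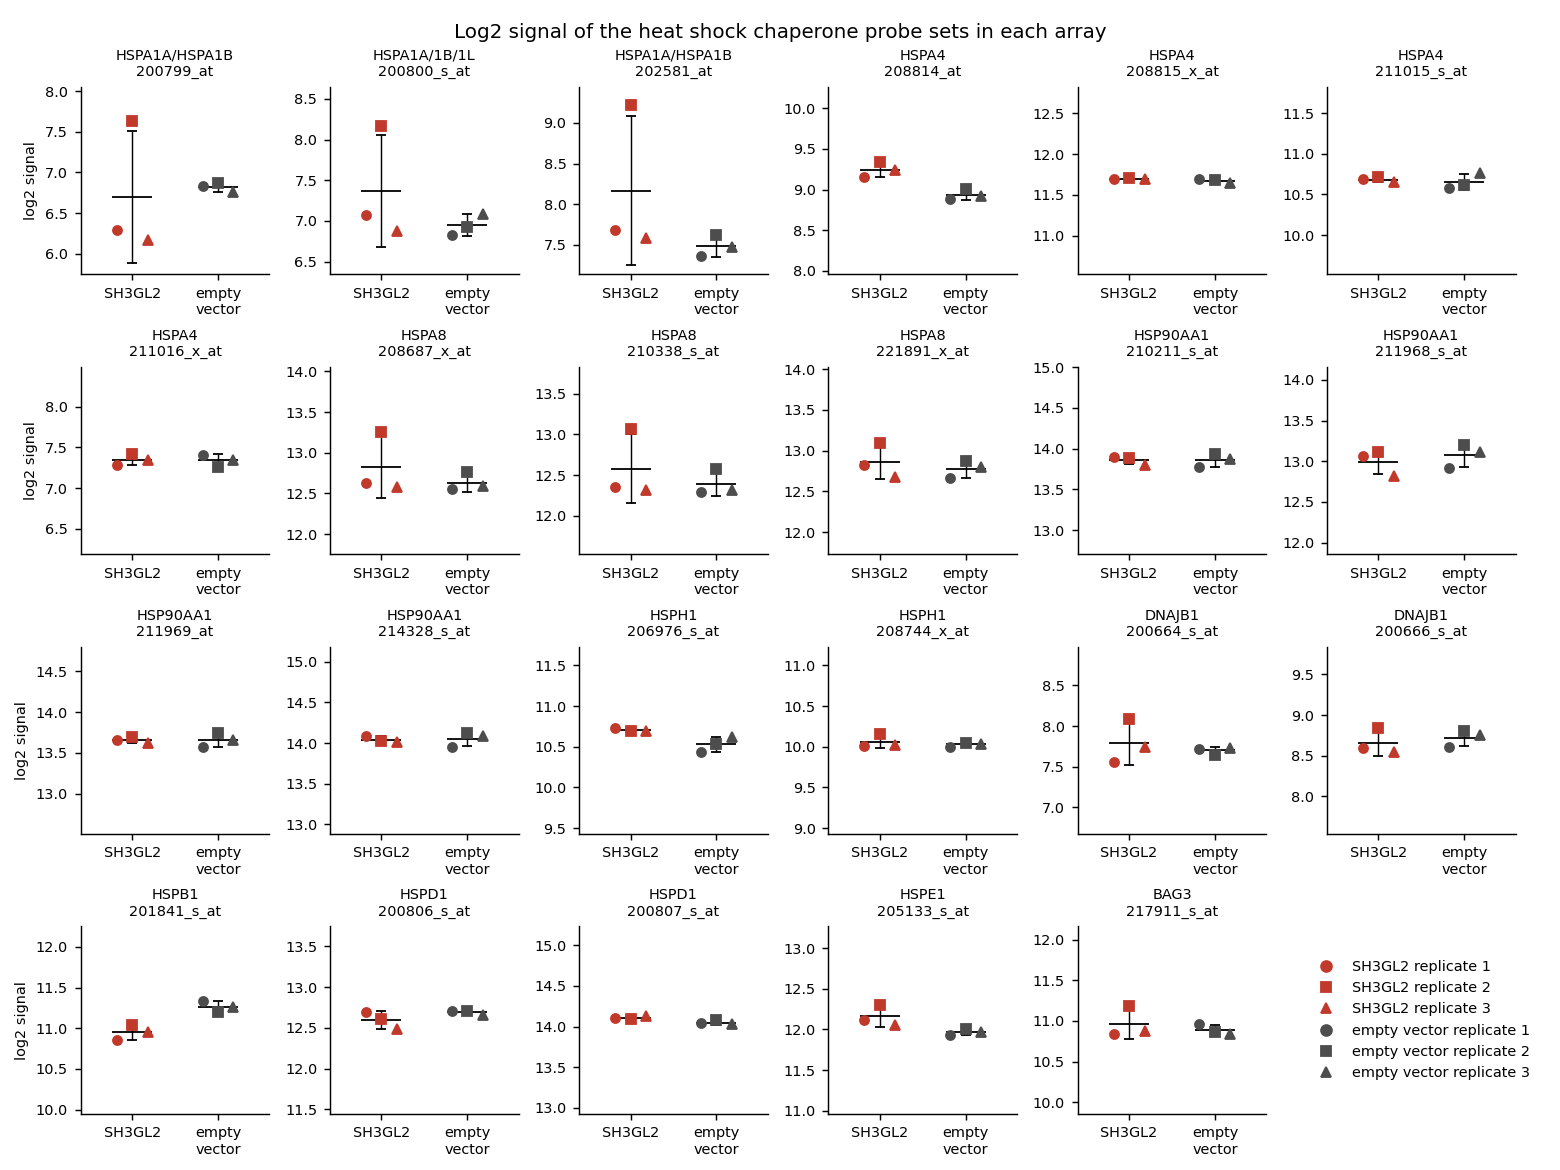
Log2 signal of the 23 probe sets in each array, with SH3GL2 arrays in red and empty vector arrays in grey, a marker shape for each replicate number, and bars for mean and SD (n = 3 arrays). Every panel spans the same range of log2 signal. The square of SH3GL2 replicate 2 lies above the other SH3GL2 arrays for HSPA1A and HSPA8, and HSPB1 lies lower in all SH3GL2 arrays.

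Heat shock elements were sought in the 250 bases before the start site of each member, to show which of the genes that follow carry the letters that HSF1 recognizes. A pair of inverted units (GAANNTTC or TTCNNGAA, both strands, since each form is its own reverse complement) occurs in 11.6% of the 35116 RefSeq promoter windows of this length (GRCh38.p14), and 3 units in a row (GAANNTTCNNGAA or its reverse complement TTCNNGAANNTTC, which contain the pair) in 0.441%. Of 14 windows of the 10 genes, 6 held the pair, 1 each for HSPA1A, HSPA8, HSP90AA1, DNAJB1, HSPB1 and HSPD1, and 3 held the triple, those of HSPA8, HSP90AA1 and HSPD1. A match describes the letters and does not show that a factor binds there. A window without a match does not show that a gene lacks the element, since only exact units within 250 bases were sought. The windows of HSPA4, the gene of the higher probe set, and of BAG3, HSPH1 and HSPE1 held no pair and are not printed. Those below are among the windows that held a pair, with HSPA1B beside HSPA1A and HSP90AA1 for comparison. They run 5′ to 3′ up to the base before the start site, with the pairs and triples in capitals.
HSPA1A: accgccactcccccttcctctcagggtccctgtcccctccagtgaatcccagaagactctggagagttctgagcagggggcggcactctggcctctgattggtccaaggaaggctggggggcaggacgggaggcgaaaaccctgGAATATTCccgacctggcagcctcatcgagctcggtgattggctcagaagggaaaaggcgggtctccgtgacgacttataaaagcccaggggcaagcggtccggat
HSPA1B: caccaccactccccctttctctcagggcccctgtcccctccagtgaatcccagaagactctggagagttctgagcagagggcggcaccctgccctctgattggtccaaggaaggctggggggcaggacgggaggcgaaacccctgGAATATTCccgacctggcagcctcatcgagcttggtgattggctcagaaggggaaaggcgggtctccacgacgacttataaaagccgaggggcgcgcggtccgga
HSPA8: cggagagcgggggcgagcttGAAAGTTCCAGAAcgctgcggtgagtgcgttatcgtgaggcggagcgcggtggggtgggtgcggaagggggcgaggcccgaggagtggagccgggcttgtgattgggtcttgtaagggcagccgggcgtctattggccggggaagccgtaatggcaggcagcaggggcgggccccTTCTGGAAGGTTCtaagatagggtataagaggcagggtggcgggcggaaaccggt
HSP90AA1: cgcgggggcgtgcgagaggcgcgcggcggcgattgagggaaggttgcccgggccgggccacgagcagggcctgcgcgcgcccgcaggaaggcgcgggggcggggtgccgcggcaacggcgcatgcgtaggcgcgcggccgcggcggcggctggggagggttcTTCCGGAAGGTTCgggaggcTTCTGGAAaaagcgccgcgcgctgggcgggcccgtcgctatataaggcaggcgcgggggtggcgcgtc
DNAJB1: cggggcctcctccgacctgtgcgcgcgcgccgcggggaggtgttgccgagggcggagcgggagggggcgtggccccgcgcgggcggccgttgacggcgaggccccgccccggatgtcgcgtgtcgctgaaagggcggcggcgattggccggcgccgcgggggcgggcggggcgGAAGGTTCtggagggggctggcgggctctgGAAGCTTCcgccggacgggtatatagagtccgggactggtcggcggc
HSPB1: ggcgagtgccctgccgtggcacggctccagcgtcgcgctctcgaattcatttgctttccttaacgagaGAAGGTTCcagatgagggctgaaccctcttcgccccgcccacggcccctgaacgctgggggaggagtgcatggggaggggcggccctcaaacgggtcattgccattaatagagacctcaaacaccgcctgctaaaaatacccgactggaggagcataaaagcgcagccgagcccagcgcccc
The HSPA1A window lies at chr6:31815293-31815542 on the + strand and that of HSPA1B at chr6:31827488-31827737 on the + strand. They share 235 of 249 aligned bases (94.4%), and in each the pair ends less than 100 bases before the start site (99 bases for HSPA1A and 98 for HSPA1B, counted from the last base of the pair). The HSPA8 window (chr11:123062137-123062386, - strand) holds 2 triples, the nearer ending 43 bases before the start site, and the HSP90AA1 window (chr14:102087045-102087294, - strand, the downstream of 2 annotated starts) holds 1 triple and a further pair. The DNAJB1 window (chr19:14518398-14518647, - strand, 1 of 3 annotated starts) holds 2 pairs, and the HSPB1 window (chr7:76302423-76302672, + strand) 1 pair that lies 175 bases before the start site.

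HSPA1A encodes the stress-induced HSP70, and at chromosome 6 (31815543 to 31817942, GRCh38.p14) it neighbors HSPA1B. The probe set 202581_at, which lists both genes, read 7.68, 9.22 and 7.59 in SH3GL2 replicates 1, 2 and 3, against 7.36, 7.62 and 7.47 in the empty vector arrays. SH3GL2 replicate 2 stood 1.59 above the mean of the other SH3GL2 arrays, a 3.00-fold difference, while SH3GL2 replicate 3 lay within the range of the empty vector arrays and replicate 1 just above it. The SD was 0.92 over the SH3GL2 arrays and 0.13 over the empty vector arrays (n = 3 each). The log2 fold change between the groups was 0.68 (95% interval 0.01 to 1.35, adjusted p = 0.307 from limma), and 0.15 without SH3GL2 replicate 2 (adjusted p = 0.593). The probe set 200800_s_at, which lists HSPA1L as well, read 7.07, 8.16 and 6.88 in the SH3GL2 arrays, against 6.83, 6.93 and 7.09 in the empty vector arrays. SH3GL2 replicates 1 and 3 lay within the range of the empty vector arrays here and replicate 2 stood 1.19 above their mean, and the log2 fold change of 0.42 (adjusted p = 0.458) was 0.03 without it.

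The remaining probe set of these paralogs went another way. On 200799_at the SH3GL2 arrays read 6.29, 7.63 and 6.17, against 6.83, 6.87 and 6.76 in the empty vector arrays, so that SH3GL2 replicate 2 was the highest of the 6 arrays and SH3GL2 replicates 1 and 3 were the lowest. Over all 6 arrays it changed by -0.12 on the log2 scale (95% interval -0.72 to 0.48, adjusted p = 0.892). Without SH3GL2 replicate 2 it changed by -0.59 (limma, adjusted p = 0.0056, standard error 0.11), a decrease that the other 2 probe sets of the same genes did not show. Its means of 6.70 in SH3GL2 cells and 6.82 in empty vector cells lay below the background level, as did those of 200800_s_at. Only 202581_at had a group mean above that level, although SH3GL2 replicate 2 alone exceeded it on 200799_at (7.63) and on 200800_s_at (8.16).

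HSPA8 encodes HSC70, the HSP70 of unstressed cells, at chromosome 11 (123057489 to 123062462). The probe set 210338_s_at read 12.35, 13.07 and 12.32 in the SH3GL2 arrays, against 12.29, 12.57 and 12.32 in the empty vector arrays. SH3GL2 replicate 2 was the highest of the 6 arrays, 0.74 above the mean of the other SH3GL2 arrays, and empty vector replicate 2 was the highest of its group. The probe set 208687_x_at read 12.63, 13.26 and 12.58 in the SH3GL2 arrays, against 12.55, 12.76 and 12.59 in the empty vector arrays, and 221891_x_at read 12.82, 13.10 and 12.68 in the SH3GL2 arrays, against 12.66, 12.87 and 12.80 in the empty vector arrays. All 3 probe sets thus had SH3GL2 replicate 2 as the highest array. The log2 fold changes were 0.09 to 0.19, with intervals from -0.14 to 0.52 and adjusted p of 0.577 to 0.712 in limma, and -0.06 to -0.03 without SH3GL2 replicate 2. Array elements that end in _x_at, as 2 of these do, may cross-hybridize with other transcripts.

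**Figure D2:**
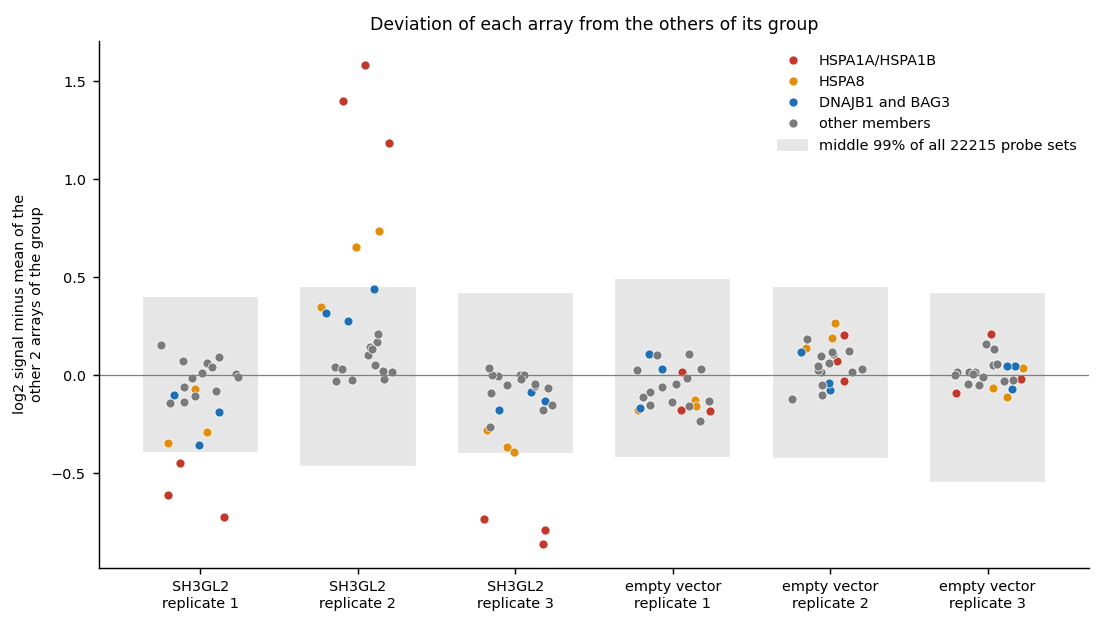
Log2 signal of each array minus the mean of the other 2 arrays of its group, for the 23 probe sets (points) and for the middle 99% of all 22215 probe sets (grey boxes). The HSPA1A/HSPA1B points of SH3GL2 replicate 2 lie at 1.19 to 1.59, far above the box, and SH3GL2 replicates 1 and 3 are each set against a mean that includes replicate 2.

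Among all 22215 probe sets, the 3 of HSPA1A and HSPA1B had the 3 largest excesses of SH3GL2 replicate 2 over the mean of the other SH3GL2 arrays. Only 4 probe sets (0.018%) exceeded 1 on this measure, the other being that of DKK1, a secreted WNT inhibitor. The HSPA8 probe sets 210338_s_at and 208687_x_at ranked 14 and 18. Genes outside the chaperone lists ranked before them, such as FEN1 at 5 and 7, CCNE2 at 9 and HMGCS1 at 10. At least 0.3 above the other arrays were 8 of the 23 chaperone probe sets, 6 for HSPA1A and HSPA8, 1 for DNAJB1 and 1 for BAG3, against 2.66% of all probe sets. SH3GL2 replicate 2 was above both other SH3GL2 arrays at 18 of the 23 and at 35.1% of all probe sets. Probe sets of 1 gene read the same transcripts and are not separate observations. In the other 5 arrays none of the 23 probe sets was at least 0.3 above the other arrays of its group, while 1.85% to 5.25% of all probe sets were. SH3GL2 replicates 1 and 3 were each set against a mean that includes replicate 2, which lowers their values where replicate 2 is high. At least 0.3 below the other arrays of their group were 5 of the 23 in each, so their lack of an excess is not independent of replicate 2. SH3GL2 replicate 2 was at least 0.3 above the others of its group at 2.66% of all probe sets and at least 0.3 below at 3.33%. These shares were 1.85% and 1.81% in SH3GL2 replicate 1 and 2.07% and 1.59% in replicate 3. In the empty vector arrays they were 2.15% to 5.25% above and 2.13% to 6.5% below. The median of SH3GL2 replicate 2 was 7.01, and the 3′ minus 5′ difference of the GAPDH control was 0.32, within the 0.31 to 0.37 of all arrays. That of the ACTB control was 2.03, the lowest of the arrays, which otherwise read 2.12 to 2.25, and its part in the result was not tested.

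DNAJB1, the main stress-induced J-domain partner of HSP70, lies at chromosome 19 (14514769 to 14560391). The probe set 200666_s_at read 8.59, 8.84 and 8.54 in the SH3GL2 arrays, against 8.61, 8.80 and 8.75 in the empty vector arrays, and 200664_s_at read 7.56, 8.09 and 7.74 in the SH3GL2 arrays, against 7.72, 7.65 and 7.73 in the empty vector arrays. On both the highest array was SH3GL2 replicate 2, and the groups overlapped. The log2 fold changes were -0.06 (95% interval -0.26 to 0.13) and 0.10 (-0.15 to 0.35), with adjusted p of 0.819 and 0.776. Without SH3GL2 replicate 2 they were -0.16 and -0.05. BAG3, a co-chaperone that releases clients from HSP70 and directs them to autophagy, lies at chromosome 10 (119651380 to 119677819). It read 10.84, 11.18 and 10.88 in the SH3GL2 arrays, against 10.96, 10.86 and 10.84 in the empty vector arrays. SH3GL2 replicate 2 was the highest of the 6 arrays, and the other SH3GL2 arrays lay within the range of the empty vector arrays. The log2 fold change of BAG3 was 0.08 (95% interval -0.10 to 0.26, adjusted p = 0.726), and -0.03 without that array.

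HSPA4 and HSPH1 encode HSP110 proteins, which act as nucleotide exchange factors of HSP70. HSPA4 lies at chromosome 5 (133052013 to 133106449). Its probe set 208814_at read 9.15, 9.34 and 9.24 in the SH3GL2 arrays, against 8.88, 9.01 and 8.92 in the empty vector arrays, without overlap. It rose by 0.31 on the log2 scale (standard error 0.07, a 1.24-fold difference, adjusted p = 0.0349 from limma). The other 3 probe sets of HSPA4 had log2 fold changes of 0.01 to 0.03, with intervals from -0.17 to 0.19 and adjusted p of 0.835 to 0.976, so that the increase was seen on 1 of 4 probe sets. The mean over the 4 changed by 0.09 (adjusted p = 0.524). The call was also lost without any 1 of 5 arrays, all but SH3GL2 replicate 1 (adjusted p = 0.0679 to 0.136), with each array centred at its median (adjusted p = 0.0525), without an intensity trend (adjusted p = 0.0831), under the floor described below for HSPB1 (adjusted p = 0.126) and in the analysis of variance (adjusted p = 0.220). HSPH1 (chromosome 13, 31134973 to 31162388) read 10.73, 10.69 and 10.69 on 206976_s_at in the SH3GL2 arrays, against 10.43, 10.54 and 10.62 in the empty vector arrays. The groups did not overlap there, but the log2 fold change of 0.17 (95% interval 0.04 to 0.31) did not pass (adjusted p = 0.165). Its other probe set, 208744_x_at, changed by 0.03 on the log2 scale (adjusted p = 0.869). Neither HSP110 gene reached an excess of 0.3 in SH3GL2 replicate 2, whose deviations from the other SH3GL2 arrays were -0.02 to 0.15 over their 6 probe sets. That array was still the highest of the SH3GL2 arrays on all 4 probe sets of HSPA4 and on 208744_x_at of HSPH1.

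HSP90AA1, the inducible HSP90 of the cytosol, lies at chromosome 14 (102080742 to 102139749). Its brightest probe set, 214328_s_at, read 14.09, 14.02 and 14.01 in the SH3GL2 arrays, against 13.95, 14.12 and 14.09 in the empty vector arrays. All 4 probe sets overlapped between the groups, with log2 fold changes of -0.08 to 0.00 and intervals from -0.25 to 0.10. On 210211_s_at, 211969_at and 214328_s_at the intervals lay within -0.12 to 0.10. SH3GL2 replicate 2 deviated by -0.03 to 0.17 from the other SH3GL2 arrays.

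HSPB1 was the one of the 10 genes that fell. It encodes HSP27, a small heat shock protein that also binds actin filaments, and lies at chromosome 7 (76302673 to 76304292). Its only probe set, 201841_s_at, read 10.86, 11.04 and 10.95 in the SH3GL2 arrays, against 11.34, 11.20 and 11.26 in the empty vector arrays. The groups did not overlap, for which an exact two-sided permutation test gives p = 0.1, its lowest possible value with 3 arrays in each group. HSPB1 averaged 10.95 ± 0.09 in SH3GL2 cells and 11.27 ± 0.07 in empty vector cells (SD, n = 3 each), a log2 fold change of -0.32 (standard error 0.06, 95% interval -0.45 to -0.18, adjusted p = 0.0105 from limma), or 1.25-fold lower. Without SH3GL2 replicate 2 it was -0.36 (adjusted p = 0.0029), whereas the call was lost without SH3GL2 replicate 3 (adjusted p = 0.0565) and without empty vector replicate 1 (adjusted p = 0.0584). It was also lost without an intensity trend (adjusted p = 0.0721), with a floor that set all signals below 5.03, the median of the reference probe sets, to that value (adjusted p = 0.112) and in the analysis of variance (adjusted p = 0.206).

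The genes whose pattern over the 6 arrays was most like that of HSPB1 were TGFB1I1, DIXDC1, TPM4, LOXL1 and PXMP4. Likeness was the root mean square difference over the 6 arrays after each probe set was centred on its own mean, among 8806 probe sets with 1 symbol and a mean above the background level, and it was 0.03 for TGFB1I1 and 0.04 to 0.05 for the others. TGFB1I1 read 9.57, 9.72 and 9.74 in the SH3GL2 arrays, against 10.06, 9.91 and 10.01 in the empty vector arrays. The choice by likeness fixes the group difference of these genes near that of HSPB1, at log2 fold changes of -0.39 to -0.32.

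**Figure D3:**
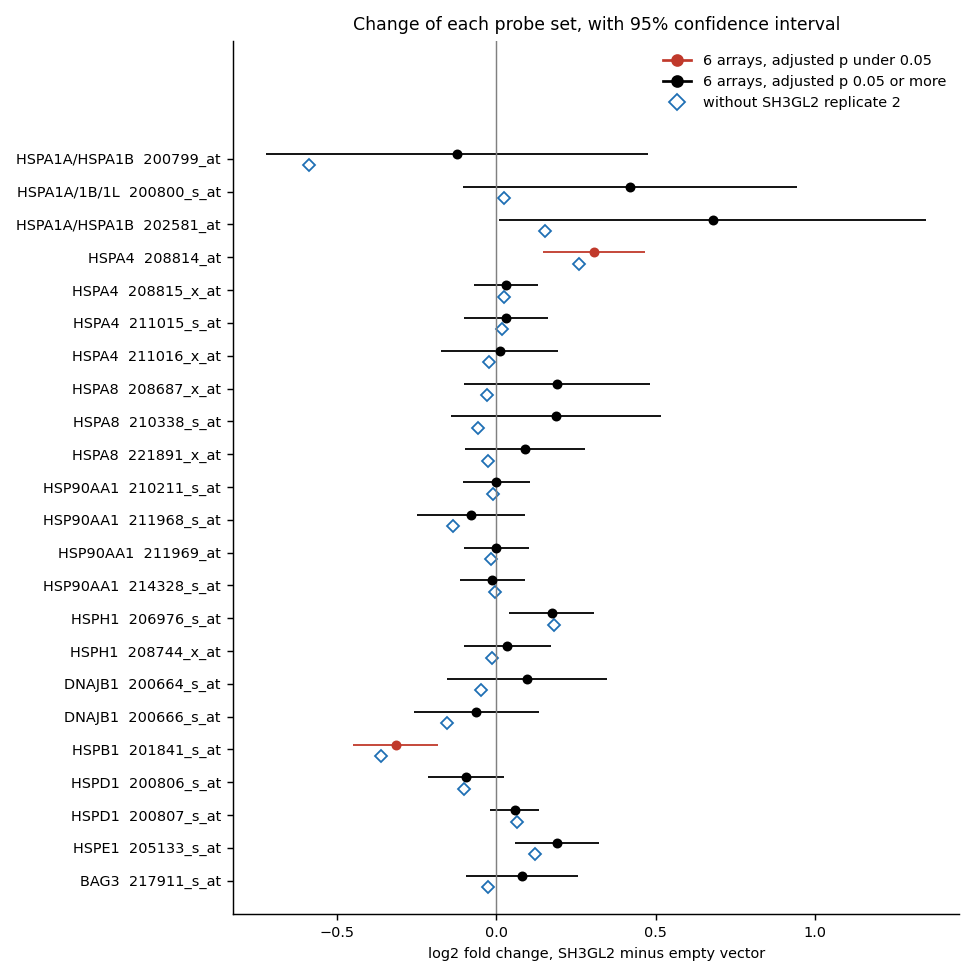
Log2 fold change of each of the 23 probe sets, SH3GL2 minus empty vector, with the 95% confidence interval from limma over 6 arrays (circles, red where the adjusted p was under 0.05) and the value without SH3GL2 replicate 2 (open diamonds). HSPB1 stayed at -0.32 and -0.36, and the HSPA1A/HSPA1B probe set 202581_at was 0.68 with that array and 0.15 without it.

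HSPD1 and HSPE1 encode HSP60 and HSP10, the barrel and the lid of the mitochondrial chaperonin. The genes lie head to head on chromosome 2 (197486584 to 197500274 and 197500379 to 197503449), with 105 bases between their outer start sites. HSPE1 read 12.12, 12.30 and 12.06 in the SH3GL2 arrays, against 11.93, 12.01 and 11.97 in the empty vector arrays, without overlap. Its log2 fold change of 0.19 (95% interval 0.06 to 0.32) did not pass over all probe sets (adjusted p = 0.122), and was 0.12 without SH3GL2 replicate 2. HSPD1 read 14.10, 14.09 and 14.13 on 200807_s_at in the SH3GL2 arrays, against 14.04, 14.08 and 14.03 in the empty vector arrays, also without overlap, at a log2 fold change of 0.06 (adjusted p = 0.511). On 200806_s_at it read 12.70, 12.61 and 12.48 in the SH3GL2 arrays, against 12.71, 12.71 and 12.66 in the empty vector arrays, a log2 fold change of -0.10 (adjusted p = 0.451). Both probe sets of HSPD1 therefore differed in direction, by amounts that did not pass.

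**Figure D4:**
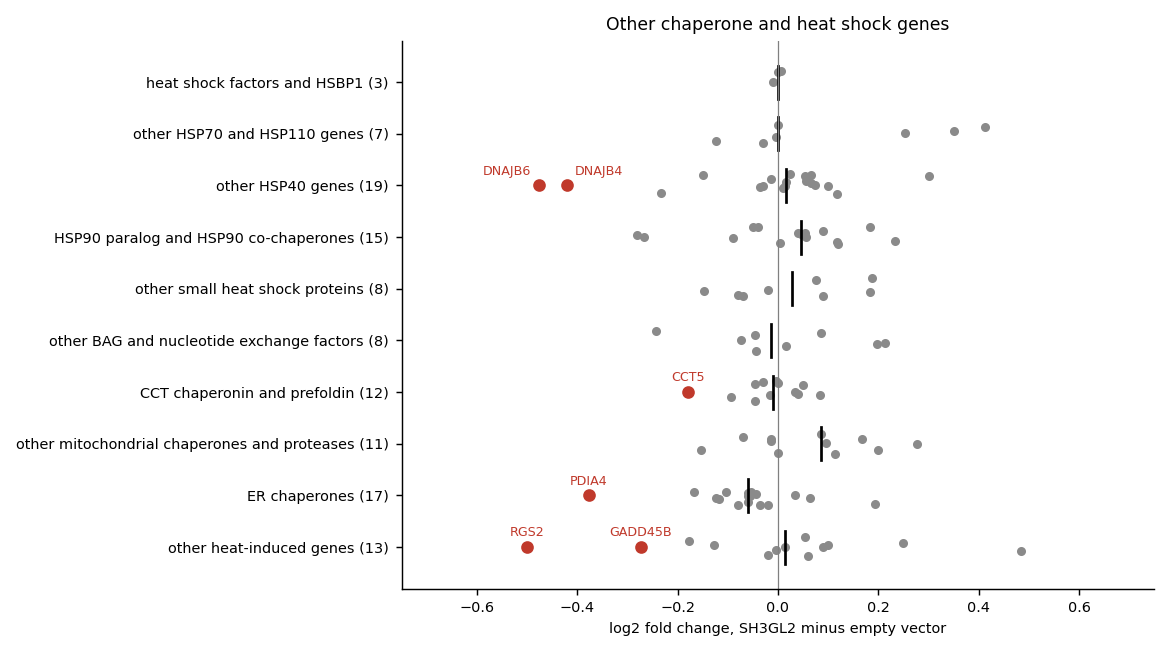
Log2 fold change, SH3GL2 minus empty vector, of the other chaperone and heat shock genes by list, with the number of genes measured in brackets, a black line for the median and red points for genes with an adjusted p under 0.05. The 6 red genes all lie left of 0.

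Beyond these members, 111 of 129 other genes of the chaperone and heat shock network had a probe set of their own, and each was read on the one with the highest mean. In SH3GL2 cells 6 were lower, none was higher and 105 did not pass limma, where 4.9% of 11963 genes read this way passed, 2.36% lower and 2.54% higher (19 of the 111 had an unadjusted p under 0.05, as did 15.9% of all probe sets, and none was higher in the analysis of variance). Their median log2 fold change was 0.00. HSF1, the factor of the heat shock response, read 8.19, 8.39 and 8.32 in the SH3GL2 arrays, against 8.41, 8.26 and 8.23 in the empty vector arrays, a log2 fold change of 0.00 (adjusted p = 1). HSF4, a factor of lens development, changed by -0.01 (adjusted p = 0.980) and HSBP1, an inhibitor of HSF1, by 0.01 (adjusted p = 0.974). The signal of HSF4 lay below the background level, which limits what it can show, and HSF2 had no probe set of its own.

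Of 19 other J-domain genes 2 fell. DNAJB6, whose product keeps aggregation-prone proteins soluble, read 7.19, 7.56 and 7.14 in the SH3GL2 arrays, against 7.71, 7.76 and 7.85 in the empty vector arrays, a log2 fold change of -0.48 (adjusted p = 0.0273). DNAJB4 read 9.01, 8.98 and 8.95 in the SH3GL2 arrays, against 9.19, 9.50 and 9.51 in the empty vector arrays, a change of -0.42 (adjusted p = 0.0148), and its other probe set changed by -0.45 (adjusted p = 0.06). CCT5, a subunit of the cytosolic chaperonin, fell by 0.18 (adjusted p = 0.0391, the 1 of 12 chaperonin and prefoldin genes to pass), and PDIA4, a disulfide isomerase of the endoplasmic reticulum, fell by 0.38 on 1 of 2 probe sets (adjusted p = 0.0102, the 1 of 17 endoplasmic reticulum chaperones). Among 13 other heat-induced genes RGS2, a regulator of G protein signaling, fell by 0.50 (adjusted p = 0.0011) and GADD45B, a growth arrest gene, by 0.27 (adjusted p = 0.0235, lower on 2 of 4 probe sets). Neither of these 2 encodes a chaperone. RGS2 kept its call without each of the 6 arrays in turn. The others lost theirs without SH3GL2 replicate 3 or empty vector replicates 2 or 3 (DNAJB4, adjusted p = 0.0734 to 0.0867), without empty vector replicates 2 or 3 (PDIA4, adjusted p = 0.0505 to 0.0557), without each array but SH3GL2 replicate 2 (DNAJB6, adjusted p = 0.0557 to 0.146), without SH3GL2 replicates 1 or 3 or empty vector replicates 2 or 3 (CCT5, adjusted p = 0.111 to 0.169) and without SH3GL2 replicates 1 or 2 or empty vector replicates 1 or 3 (GADD45B, adjusted p = 0.0505 to 0.104). None of 7 other HSP70 and HSP110 genes, 15 HSP90 genes and co-chaperones, 8 small heat shock proteins, 8 BAG and exchange factors and 11 mitochondrial genes passed in either direction. At an unadjusted p under 0.05 these lists held 1 of 7 (HSPA12A), 4 of 15, 0 of 8, 2 of 8 and 3 of 11 genes, beside 15.9% of all probe sets.

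SH3GL2 replicate 2 deviated from the other SH3GL2 arrays at some of these genes too, in both directions. It stood at least 0.3 above their mean at 8 of the 111, HSPA2, HSPA12A, DNAJA1, DNAJB6, STIP1, BAG4, SDF2L1 and SERPINH1. This was so at 2.66% of all probe sets, and the median deviation was 0.06 over the list and 0 over all probe sets. At least 0.3 below were HSPA13 (-0.555), DDIT3 (-0.535), ATF3 (-0.39), ODF1 (-0.375), HERPUD1 (-0.365), CHORDC1 (-0.335) and DNAJC6 (-0.325), beside 3.33% of all probe sets. Of these genes, HSPA2, HSPA12A, BAG4 and ODF1 lay below the background level. The DNAJB6 value of that array, 7.56, lay below all empty vector arrays. DNAJA1, a J-domain partner of HSPA8, read 10.31, 10.94 and 10.16 in the SH3GL2 arrays, against 10.01, 10.40 and 10.10 in the empty vector arrays, so that SH3GL2 replicate 2 and empty vector replicate 2 were each the highest of their group, as on all 3 probe sets of HSPA8. STIP1, which links HSP70 to HSP90, read 8.95, 9.31 and 8.90 in the SH3GL2 arrays, against 8.76, 8.83 and 8.87 in the empty vector arrays. HSPA6, an HSP70 gene made almost only under severe stress, read 5.86, 5.87 and 5.71 in the SH3GL2 arrays, against 5.92, 5.73 and 5.80 in the empty vector arrays, with no excess in SH3GL2 replicate 2 and all values below the background level.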

How the data were processed

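Total RNA was hybridized to Affymetrix expression arrays, 3 for SH3GL2 and 3 for empty vector. Per the paper's methods, arrays were scanned and analysed with GCOS software, and the submitters' processing notes name MAS5. The values the authors deposited are log2 signals. How the arrays were scaled is not given in the sources used here. Values were used as deposited. After 62 of 22277 probe sets were dropped as controls, 22215 entered 1 moderated linear model in limma 3.58.1 under R 4.3.3, whose prior variance followed the signal level. Tests were two-sided at 0.05 after Benjamini-Hochberg adjustment over these 22215. Intervals are 95%. The number of arrays and signal over background limit the precision, and 44.4% of probe sets lay above the background level on average over the arrays. On simulated data for this comparison (22215 probe sets, 200 changed), limma recovered 8% of 1.2-fold, 78% of 1.5-fold and 90% of 2-fold changes. Members and lists were chosen with earlier results of these data known. Named beside all members were up to 3 genes of each list by smallest adjusted p under 0.05, the heat shock factors and the 5 genes most like the member with the smallest p. Others were named after their values were seen. All 10 member symbols and 128 of 129 list symbols are RefSeq names (GRCh38.p14). Promoter windows are from RefSeq. Alternatives were quantile normalization, median centring, an offset of 16, a floor, brighter probe sets only, other variance models, an analysis of variance, stricter thresholds, a replicate block, gene means and leaving out each array.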

Additional observations from a re-analysis of the deposited data

How the results depend on the processing

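The count of all probe sets called, 926, was 302 under a floor at the median of the reference probe sets, 597 without an intensity trend, 77 in the analysis of variance, 447 at an adjusted p under 0.01 and 254 with a change of at least 1.5-fold as well, and 480 to 801 with 1 array left out. The 1 higher chaperone probe set became 0 under the floor, without the trend, in the analysis of variance, under both stricter thresholds and after median centring of the arrays. The 1 lower became 0 under the same settings but median centring. With 1 array left out each was 0 to 1. Of the other chaperone genes, 6 were lower, but 2 under the floor, 1 without the trend, 1 in the analysis of variance, 1 at an adjusted p under 0.01, 0 with at least 1.5-fold and 1 to 6 with 1 array left out. None was higher, but 1 was among probe sets above the background level, 2 among the brighter part, 1 with a robust prior, 2 with the replicate block and 0 to 1 with 1 array left out. The cause was not tested, other than that fewer probe sets or arrays entered some fits.

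With the replicate number as a block, 1079 probe sets passed, and the chaperone counts stayed at 1 higher and 1 lower (HSPA4, adjusted p = 0.0233, and HSPB1, adjusted p = 0.0158). The numbers were not taken as pairs, because residuals of same-numbered arrays correlated at -0.01, 0.13 and 0.15, of which the first is under 0.1. Those of arrays with unlike numbers correlated at -0.16 to 0.02. In limma with the block, HSPA1A and HSPA1B did not pass on 202581_at (adjusted p = 0.0995), 200800_s_at (0.312) or 200799_at (0.837). Nor did the HSPA8 probe sets (adjusted p = 0.238 to 0.539).

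Signs turned only at values that did not pass. HSPA4 on 211016_x_at was -0.00528 with quantile normalization, -0.00333 with median centring and -0.03 to 0.045 with 1 array left out. The mean of its probe sets was 0.017 for DNAJB1 and -0.02 for HSPD1. With 1 array left out, the log2 fold change ran from -0.05 to 0.22 for DNAJB1 on 200664_s_at, -0.015 to 0.06 for HSPH1 on 208744_x_at, -0.0067 to 0.083 for HSPA4 on 211015_s_at, -0.16 to 0.0083 and -0.065 to 0.02 for HSP90AA1 on 211968_s_at and 214328_s_at, -0.027 to 0.14 for BAG3, and -0.59 to 0.14 for HSPA1A and HSPA1B on 200799_at. For HSPA8 it ran from -0.028 to 0.31 on 208687_x_at, -0.058 to 0.32 on 210338_s_at and -0.027 to 0.18 on 221891_x_at. Offset and quantile normalization changed no call of a chaperone probe set. Signal near background limits what 200799_at, 200800_s_at and 211016_x_at can show.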
